A study of Mus musculus with 8 samples.

Results

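The genes described here encode 10 cadherins of the mouse brain: *Cdh2*, *Cdh4*, *Cdh6*, *Cdh8*, *Cdh9*, *Cdh10*, *Cdh11*, *Cdh12*, *Cdh13* and *Cdh18*. They were chosen by name. All 10 were found among the 38031 genes with counts and all 10 were among the 9959 genes tested. *Cdh2* and *Cdh4* encode classical type I cadherins, and *Cdh6*, *Cdh8*, *Cdh9*, *Cdh10*, *Cdh11*, *Cdh12* and *Cdh18* encode type II cadherins. *Cdh13* belongs to neither class, because its product, T-cadherin, is held in the membrane by a GPI anchor and has no cytoplasmic tail.

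The libraries came from primary motor cortex (M1) of male Swiss Webster mice, 4 treated with *Fezf2 shRNA* and 4 treated with *non-silencing shRNA*, the control. Both groups received a lentivirus in M1 at P21 to P25, and tissue was taken at P49 to P53. In each vector the synapsin I promoter drove mCherry and the shRNA, so that expression was directed to neurons, while RNA was taken from all layers of the dissected tissue and from the meninges. RNA of untransduced cells was therefore measured together with that of transduced neurons, and fewer cells of a type cannot be told apart from less RNA per cell.

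Cadherins are adhesion molecules whose extracellular repeats bind calcium and pair with cadherins on the facing cell. Inside the cell, classical and type II cadherins bind p120-catenin and β-catenin, and α-catenin joins the complex to actin. In the cortex N-cadherin, the product of *Cdh2*, holds synapses and progenitors together, and type II cadherins are expressed in combinations that differ between cortical layers, areas and their target nuclei.

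*Fezf2*, the target of the shRNA, had 688, 767, 735 and 702 normalized counts in control replicates 1 to 4 and 621, 583, 568 and 592 in *Fezf2 shRNA* replicates 1 to 4. All 4 knockdown values were under the lowest control (p = 0.0286 by a two-sided exact permutation test, and 4 against 4 libraries allow no smaller p), and the log2 fold change was -0.29 (SE 0.0781, edgeR adjusted p = 0.0824). Every knockdown library was below every control in 439 of the 9959 genes tested. A normalized count is the raw count divided by the effective size of the library and multiplied by the mean effective size. The libraries held 54684016 to 58003814 counts on genes. The members had 824 to 10308 raw counts per library. The sense sequence of the shRNA is shown with its longest matches in transcripts of the members.
Fezf2 shRNA: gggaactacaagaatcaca

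All 19 bases were found in annotated transcripts of *Fezf2*. The longest run of it shared with a member was 10 bases, in *Cdh6*, *Cdh10* and *Cdh18*, and 5.50% of 9948 tested genes with transcript sequence shared at least as many. *Cdh12* shared 9 bases, and the remaining 6 members shared 7 or 8 bases.

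Of the 10 genes 5 form a row on chromosome 15 that spans 10418 kb of GRCm38, in the order *Cdh6*, *Cdh9*, *Cdh10*, *Cdh12* and *Cdh18*, with gaps of 1447 to 3604 kb. *Cdh8*, *Cdh11* and *Cdh13* lie on chromosome 8, and *Cdh4* and *Cdh2* lie apart from these. The count of a gene covered the whole genomic interval of 1 transcript, exons and introns, and the study's methods name no strand option. These intervals were long, from 78.7 kb in *Cdh9* to 1041 kb in *Cdh13*, and exons made up 0.862% of the bases in *Cdh18* to 6.22% in *Cdh6*. The values below do not separate reads on exons from reads on introns. Per kb of interval, control libraries had most reads on *Cdh11*, 57.4 ± 8.11 normalized counts per kb (SD, n = 4), followed by *Cdh2* with 29.5 ± 1.72 and *Cdh10* with 25.1 ± 3.39. The fewest were on *Cdh13*, 4.51 ± 0.193, and on *Cdh4*, which ranged from 1.77 to 2.53. The control ranges of *Cdh2* and *Cdh10* overlapped, as did those of *Cdh8* and *Cdh12*, whereas those of *Cdh13* and *Cdh4* did not.

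Promoter windows of 3 genes of the row are shown, namely the pair whose libraries separated completely between the treatments, *Cdh10* and *Cdh12*, and *Cdh9*, whose means were closest. They are RefSeq windows of GRCm38.p6, from 250 bases before to 50 bases after the start of the gene, on the plus strand. *Cdh10* is at chr15:18820079-18820378, *Cdh12* at chr15:21111202-21111501 and *Cdh9* at chr15:16728665-16728964. Capitals mark CCAAT on either strand, the only searched motif found in these windows.
Cdh10: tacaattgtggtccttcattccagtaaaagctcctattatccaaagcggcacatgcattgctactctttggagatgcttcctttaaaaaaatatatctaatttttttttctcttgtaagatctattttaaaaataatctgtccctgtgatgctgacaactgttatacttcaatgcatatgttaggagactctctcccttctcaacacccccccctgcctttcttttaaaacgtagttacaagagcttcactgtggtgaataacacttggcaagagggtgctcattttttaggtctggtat
Cdh12: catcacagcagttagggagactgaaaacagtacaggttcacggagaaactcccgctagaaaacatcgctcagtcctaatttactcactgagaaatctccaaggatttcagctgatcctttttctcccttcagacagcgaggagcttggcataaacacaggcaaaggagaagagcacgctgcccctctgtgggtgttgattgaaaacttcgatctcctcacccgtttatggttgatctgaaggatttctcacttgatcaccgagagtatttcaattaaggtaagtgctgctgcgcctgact
Cdh9: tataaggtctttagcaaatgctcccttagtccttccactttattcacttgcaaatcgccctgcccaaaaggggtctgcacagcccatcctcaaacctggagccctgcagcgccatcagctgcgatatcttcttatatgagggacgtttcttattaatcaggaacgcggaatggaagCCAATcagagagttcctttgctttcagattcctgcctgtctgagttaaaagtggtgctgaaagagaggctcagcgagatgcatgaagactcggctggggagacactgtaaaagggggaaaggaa

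Both strands were searched for the CCAAT box, found in 37.4% of 32851 promoter windows, and for the GC box (GGGCGG), found in 35.7% of them. The TATA box (TATAAA) was found in 13.6% of windows, and the cyclic AMP response element (TGACGTCA) in 1.79%. None of these motifs was in the windows of *Cdh10* or *Cdh12*. The window of *Cdh10* had 2 CpG dinucleotides and 37.7% G or C, that of *Cdh12* 9 and 46.7%, and that of *Cdh9* 8 and 48.7%, against medians of 7 and 52.7% over all windows. Windows were also found for *Cdh6*, with 2 overlapping GGGCGG matches, and for *Cdh8*, with 1 match to GGGCGG and 1 to CCAAT. That of *Cdh18* had 1 match to CCAAT. Windows of 6 of the 10 genes were thus used. Those on chromosome 18, where *Cdh2* lies, were left out when windows of members were taken. The counted transcript of *Cdh9* starts 49.2 kb inside the gene as RefSeq gives it, and the promoter lies outside the counted interval. In *Cdh6*, *Cdh10*, *Cdh12* and *Cdh18* the start of the counted interval was the RefSeq start.

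The comparison of *Fezf2 shRNA* with *non-silencing shRNA* asks which transcripts change in mature M1 when *Fezf2* is reduced. One of the 10 cadherin genes, *Cdh10*, passed the threshold, which asked for an edgeR adjusted p no higher than 0.05 and a log2 fold change of 0.2 or more in size, against 2.09% of all genes tested in either direction and 1.96% for increases. *Cdh4* and *Cdh12* had larger fold changes and missed it. For 9 of the 10 genes the mean was higher after knockdown, against 43.4% of all genes tested and 84% of the 2202 genes tested whose intervals were in the length range of the members. The median log2 fold change was 0.23 over the members and -0.03 over all genes tested. It was 0.15 over the genes in the length range of the members, and 7.45% of these rose past the threshold. Of the members, 6 had an unadjusted p under 0.05 (edgeR), against 19.6% of all genes tested and 40.4% of those in the length range of the members.

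**Figure D1:**
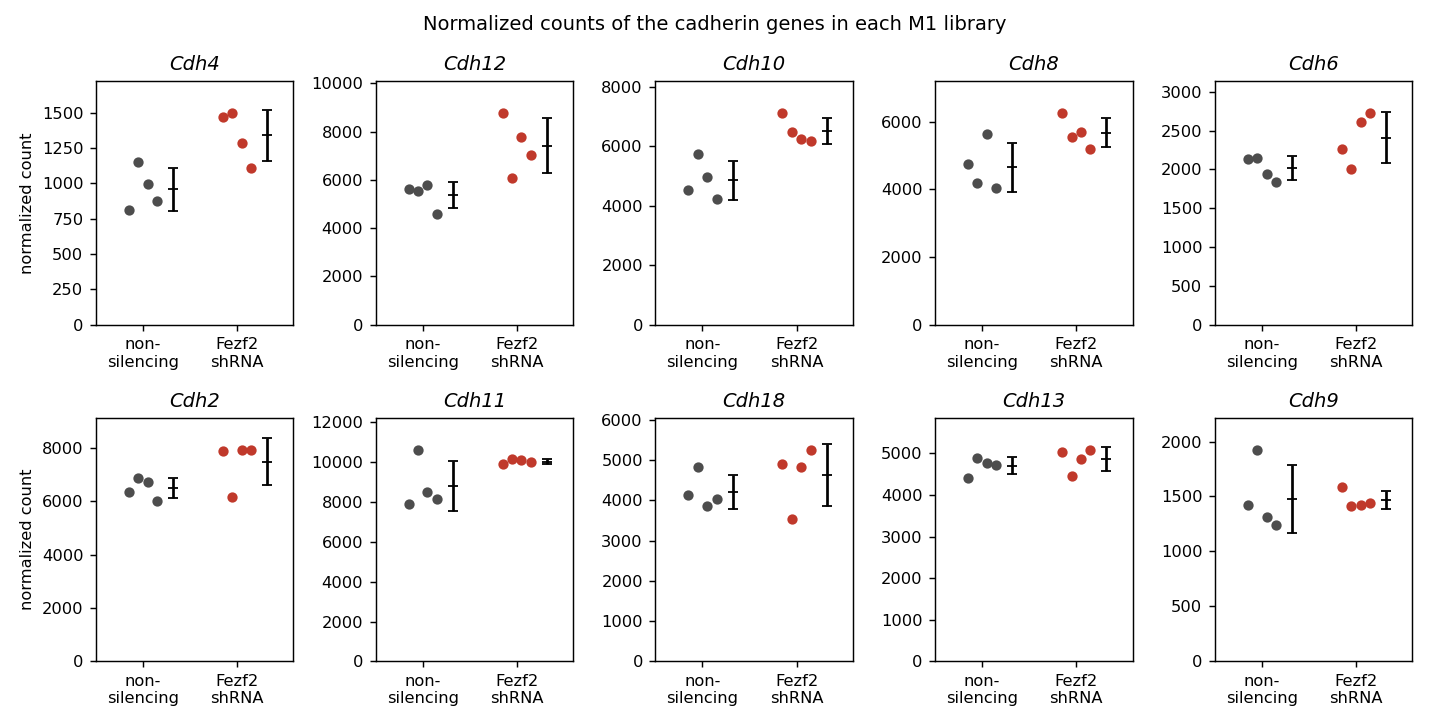
Normalized counts (linear axes from 0) of each cadherin gene in the 4 *non-silencing shRNA* libraries (grey) and the 4 *Fezf2 shRNA* libraries (red), replicates 1 to 4 from left to right, with mean and SD as bars beside the points. Genes are ordered by log2 fold change. The treatments do not overlap for *Cdh12* and *Cdh10*, and *Cdh11* and *Cdh9* have 1 high control, replicate 2.

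Among type II cadherins, *Cdh10* (ENSMUSG00000022321, chromosome 15 from 18820329 to 19014236) had 4509.8, 5740.4, 4952 and 4238 normalized counts in control replicates 1 to 4 and 7119.7, 6463, 6240.1 and 6176 in *Fezf2 shRNA* replicates 1 to 4. All 4 knockdown libraries were above the highest control, replicate 2. The mean rose from 4860.0 ± 657 to 6499.8 ± 431 (SD, n = 4 each), log2 fold change 0.42 (SE 0.0915, edgeR adjusted p = 0.0432). The groups were separated completely (two-sided exact permutation test, p = 0.0286). This separation was seen in 7.41% of all genes tested and in 25.2% of the genes in the length range of the members. The call of *Cdh10* was lost when any library other than control replicate 2 was left out, with edgeR adjusted p = 0.133 without control replicate 1, 0.0722 without control replicate 3, 0.103 without control replicate 4, 0.116 without knockdown replicate 1, 0.0593 without knockdown replicate 2, 0.0941 without knockdown replicate 3 and 0.0817 without knockdown replicate 4. The log2 fold change was 0.36 to 0.44 in these fits, and 0.51 without control replicate 2 (edgeR adjusted p = 0.0125). A filter of 1 CPM (edgeR adjusted p = 0.079) and no filter (edgeR adjusted p = 0.0846) also ended the call.

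*Cdh12* (ENSMUSG00000040452, chromosome 15 from 21111452 to 21589530), the next gene of the row, had 5607, 5555, 5784 and 4573 normalized counts in the controls and 8784, 6092, 7781 and 7033 after knockdown. Here too the treatments did not overlap (exact permutation test, two-sided, p = 0.0286), with knockdown replicate 2 closest to the controls. The means went from 5379.9 ± 547 to 7422 ± 1141 (SD, n = 4 each), log2 fold change 0.46 (SE 0.11, edgeR adjusted p = 0.0589). Without knockdown replicate 2 *Cdh12* passed the threshold (log2 fold change 0.55, edgeR adjusted p = 0.0294). That fit called 269 of all genes tested, against 208 with all libraries. With any other single library left out *Cdh12* missed the threshold (edgeR adjusted p = 0.0618 to 0.152). DESeq2 without prior called *Cdh12* as well (0.47, adjusted p = 0.00226), together with *Cdh10* and *Cdh4*. It called 6.61% of all genes tested as increased. In either direction it called 7.55% of all genes tested and 23.9% of those in the length range of the members.

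*Cdh8* (ENSMUSG00000036510, chromosome 8 from 99028769 to 99416439) had 4757, 4186, 5642 and 4029 normalized counts in the controls and 6259.9, 5556, 5695 and 5201 in knockdown libraries. Control replicate 3 was higher than 2 of the 4 knockdown libraries, and the groups overlapped. The means were 4653 ± 729 and 5678 ± 440.4 (SD, n = 4 each), log2 fold change 0.29 (SE 0.103, edgeR adjusted p = 0.167). A pair of other annotated genes cross this interval and can share reads with it. *Gm15680*, on the same strand over 109.6 kb, had 31.3% of the mean count of *Cdh8* and a log2 fold change of 0.36. *Gm15679*, antisense over 20.9 kb, had 13.2% and a log2 fold change of -0.04. Whether counting took account of the strand is not stated, and these reads cannot be assigned. No overlapping gene had more than 1.32% of the count of any other member.

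*Cdh6* (ENSMUSG00000039385, chromosome 15 from 13028701 to 13173675) had 2132, 2150.2, 1947 and 1839 normalized counts in the controls and 2269.6, 2010.0, 2615 and 2729.5 after knockdown. The knockdown libraries other than replicate 2 were above all controls, and replicate 2 lay within their range (log2 fold change 0.25, SE 0.0994, edgeR adjusted p = 0.203). *Cdh11* (ENSMUSG00000031673, chromosome 8 from 102632095 to 102785642), known for its expression in mesenchymal cells as well as neurons, had 7909, 10640.5, 8516 and 8177 normalized counts in the controls and 9889.8, 10143, 10092 and 9999.7 after knockdown. The knockdown libraries had a coefficient of variation of 1.11%, against 14.1% in the controls, and lay above 3 controls and below control replicate 2. Its difference did not pass the test (log2 fold change 0.19, SE 0.0885, edgeR adjusted p = 0.271). Without control replicate 2 it did, with a log2 fold change of 0.29 (edgeR adjusted p = 0.0282). That fit called 368 of all genes tested, against 208 with all libraries. With any other single library left out *Cdh11* did not pass (edgeR adjusted p = 0.2935 to 0.468).

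*Cdh18* and *Cdh9* had the smallest fold changes of the type II genes. *Cdh18* (ENSMUSG00000040420, chromosome 15 from 23036463 to 23446414) had 4139.9, 4824, 3858 and 4029 normalized counts in the controls and 4900.5, 3528, 4832 and 5267 after knockdown, where replicate 2 was the lowest of all 8 libraries and the other 3 were the highest (log2 fold change 0.14, SE 0.117, edgeR adjusted p = 0.529). Its log2 fold change was 0.25 without knockdown replicate 2, 0.21 without control replicate 2 and 0.07 without knockdown replicate 4. *Cdh9* (ENSMUSG00000025370, chromosome 15 from 16778101 to 16856767), which is known from a specific synapse of the hippocampus, had 1426, 1927, 1310.1 and 1240.1 normalized counts in the controls and 1585, 1410.0, 1419 and 1442 after knockdown. All knockdown libraries of *Cdh9* lay within the control range (log2 fold change -0.01, SE 0.124, edgeR adjusted p = 0.973). Control replicate 2 was the highest of the 8, and the log2 fold change without it was 0.14 (edgeR adjusted p = 0.277).

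Of the classical type I cadherins, *Cdh4*, which encodes R-cadherin (ENSMUSG00000000305, chromosome 2 from 179442431 to 179899373), had 810.5, 1155, 993 and 874 normalized counts in the controls and 1469, 1500.4, 1288 and 1112 after knockdown. Knockdown replicate 4 was below control replicate 2, and the other 3 were above all controls. This gene had the largest fold change of the 10, from 958 ± 151 to 1343 ± 179.8 (SD, n = 4 each), log2 fold change 0.49 (SE 0.125, edgeR adjusted p = 0.0728). It did not pass the threshold in this fit, and did without control replicate 2 (0.59, edgeR adjusted p = 0.0291). Without that library 368 of all genes tested passed, against 208 with all libraries. With any other single library left out *Cdh4* missed the threshold (edgeR adjusted p = 0.0736 to 0.179). *Cdh2* (ENSMUSG00000024304, chromosome 18 from 16588877 to 16809246) had 6369.7, 6877, 6719.6 and 6029 normalized counts in the controls and 7899.7, 6183, 7943 and 7944 after knockdown. The knockdown libraries other than replicate 2 lay close together, at 7899.7 to 7944 and above all controls, and replicate 2 lay among the lower controls (log2 fold change 0.21, SE 0.086, edgeR adjusted p = 0.226). Without knockdown replicate 2 the gene passed the threshold, with a log2 fold change of 0.29 (edgeR adjusted p = 0.042). That fit called 269 of all genes tested, against 208 with all libraries. With any other single library left out *Cdh2* missed the threshold (edgeR adjusted p = 0.172 to 0.413).

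*Cdh13* (ENSMUSG00000031841, chromosome 8 from 118283733 to 119324921), the GPI-anchored member, had 4414, 4887, 4769 and 4719 normalized counts in the controls and 5021, 4462, 4867 and 5089 after knockdown. The treatments overlapped, and the difference was small beside the spread (log2 fold change 0.05, SE 0.0601, edgeR adjusted p = 0.678). Its log2 fold change lay between 0.02, without control replicate 1, and 0.09, without knockdown replicate 2, when a library was left out. Its control libraries varied least of the 10 genes, with a coefficient of variation of 4.29%.

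Whether members moved by different amounts was tested within libraries, as the log2 normalized count of a gene minus the median of the other 9 genes. Relative to the others *Cdh12* differed by 0.34 (two-sided exact permutation test, p = 0.0286) and *Cdh10* by 0.31 (exact p = 0.0571). *Cdh9* had -0.28 and *Cdh13* -0.27 (exact p = 0.0571 each). None of the 10 passed after Benjamini-Hochberg adjustment over the 10 tests (smallest adjusted p of the exact permutation tests = 0.143), and 1 had an unadjusted p under 0.05. No exact p can be below 0.0286 here, so that a single differing member could not have passed this adjustment. Unequal change among the members was thus not shown, and the adjusted test cannot decide whether a single member differed.

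Fold changes in these libraries followed the length of the counted interval. The median log2 fold change was -0.09 over 5136 genes under 30 kb, 0.01 over 3119 genes of 30 to 100 kb, 0.15 over 1297 genes of 100 to 300 kb and 0.29 over 407 longer genes. *Cdh9*, the shortest member, was near the median of its class, and *Cdh13*, the longest, was below its class. A loess fit of each library on interval length was used as an offset to remove this trend. With it no member passed in edgeR, and 1 of all genes tested did. An unadjusted p under 0.05 (edgeR, with the offset) was seen in 3 members and in 1078 of the 9959 genes tested. *Cdh10* then had a log2 fold change of 0.24 (SE 0.0780, edgeR adjusted p = 0.302), *Cdh4* 0.21 (SE 0.121, edgeR adjusted p = 0.604) and *Cdh12* 0.17 (SE 0.0767, edgeR adjusted p = 0.457). *Cdh13* had -0.29 (SE 0.0642, edgeR adjusted p = 0.166) and *Cdh18* -0.14 (SE 0.0987, edgeR adjusted p = 0.668), while *Cdh2*, *Cdh8* and *Cdh11* were at 0.0050, 0.020 and 0.039. The median of the members was 0.030. With this offset *Cdh13* had 4916, 5222, 5109 and 5893 normalized counts in the controls and 4176, 4279, 4271 and 4567 after knockdown, so that every knockdown library was below every control, as was the case for 2.91% of all genes tested with the offset. For the other 9 genes the treatments overlapped. What moves counts with interval length was not tested.

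**Figure D2:**
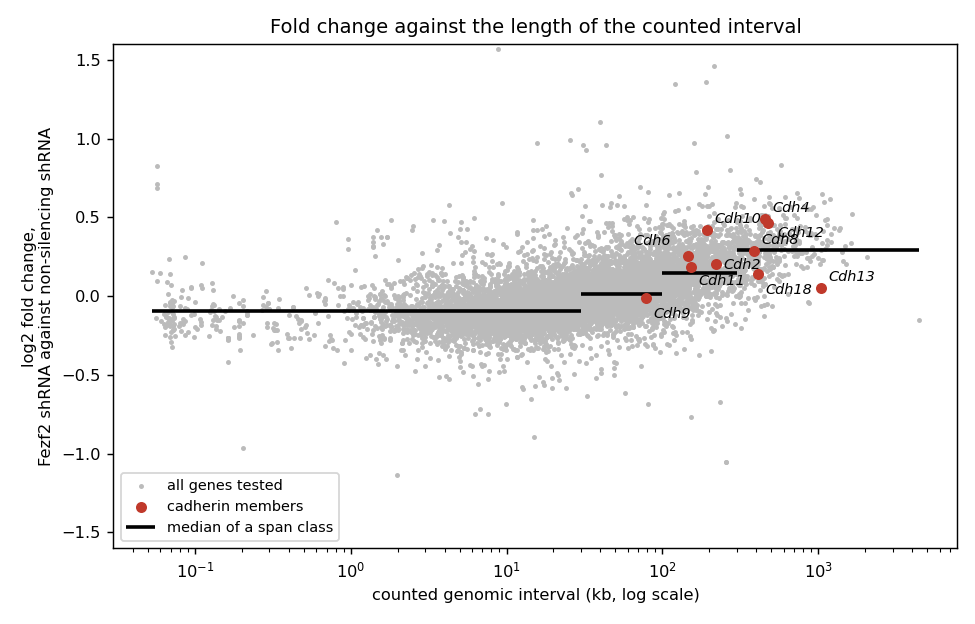
Log2 fold change against the length of the counted interval (log axis) for all genes tested (grey; 9 lie beyond the vertical axis) and the 10 cadherin genes (red), with the median of each of 4 length classes as a black line. The medians run from -0.09 under 30 kb to 0.29 over 300 kb, and the members lie at 78.7 to 1041 kb.

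**Figure D3:**
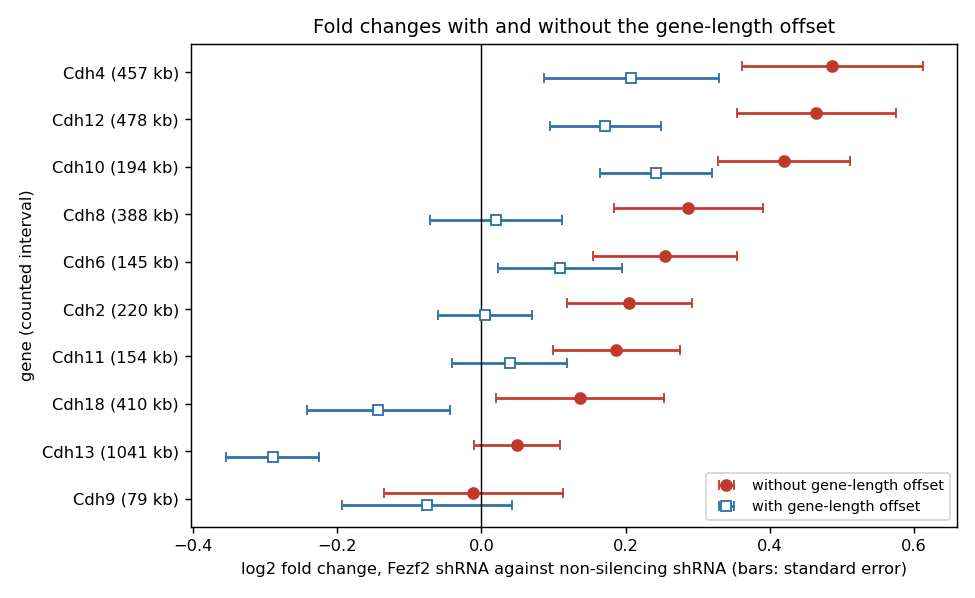
Log2 fold changes from edgeR for the 10 genes, with standard errors derived from the F statistic of its test, without (red circles) and with (blue squares) the offset for interval length. Every value is lower with the offset, and the members spread on both sides of 0, from -0.29 for *Cdh13* to 0.24 for *Cdh10*.

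Shorter annotated transcripts of a member count parts of the same gene, and 39 transcript intervals of the 10 genes had counts. Of the 35 that passed the filter, 8 rose past the threshold (edgeR over 32204 transcripts), where 4.95% of all intervals tested did. That share is over intervals of any length and was not matched to the length of those of the members. They belong to *Cdh10* (4), *Cdh4* (3) and *Cdh12* (1), and intervals of 1 gene share reads, so that they are not separate observations. *Cdh4* (edgeR adjusted p = 0.0467) and *Cdh12* (edgeR adjusted p = 0.0373) passed in this fit, in which p-values are adjusted over transcripts. The number of intervals past the threshold was 0 without control replicate 1, control replicate 4 or knockdown replicate 3, 2 without knockdown replicate 1 and 4 without knockdown replicate 4.

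In *Cdh10* the 84.2 kb interval at the 5′ end (ENSMUST00000176801) had 1623, 2250.3, 2063 and 1591 normalized counts in the controls and 3233, 2749.6, 2799.6 and 2752 after knockdown. The groups did not overlap, and the log2 fold change was 0.62 (SE 0.113, edgeR adjusted p = 0.0173). The last 7.26 kb of the gene (ENSMUST00000176409), of which 27.3% of bases are exonic, had 699, 915, 669.8 and 699 in the controls and 764, 759.8, 634 and 598 after knockdown. There the groups overlapped and the log2 fold change was -0.11 (SE 0.123, edgeR adjusted p = 0.616). The log2 ratio of the first to the last interval was 1.19 to 1.62 in the controls and 1.86 to 2.20 after knockdown, a difference of 0.74 (two-sided exact permutation test, p = 0.0286). No interval of any member that passed the filter was largely exonic, so a comparison of exons with introns could not be made. This contrast of ends was chosen after the transcript counts were seen.

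**Figure D4:**
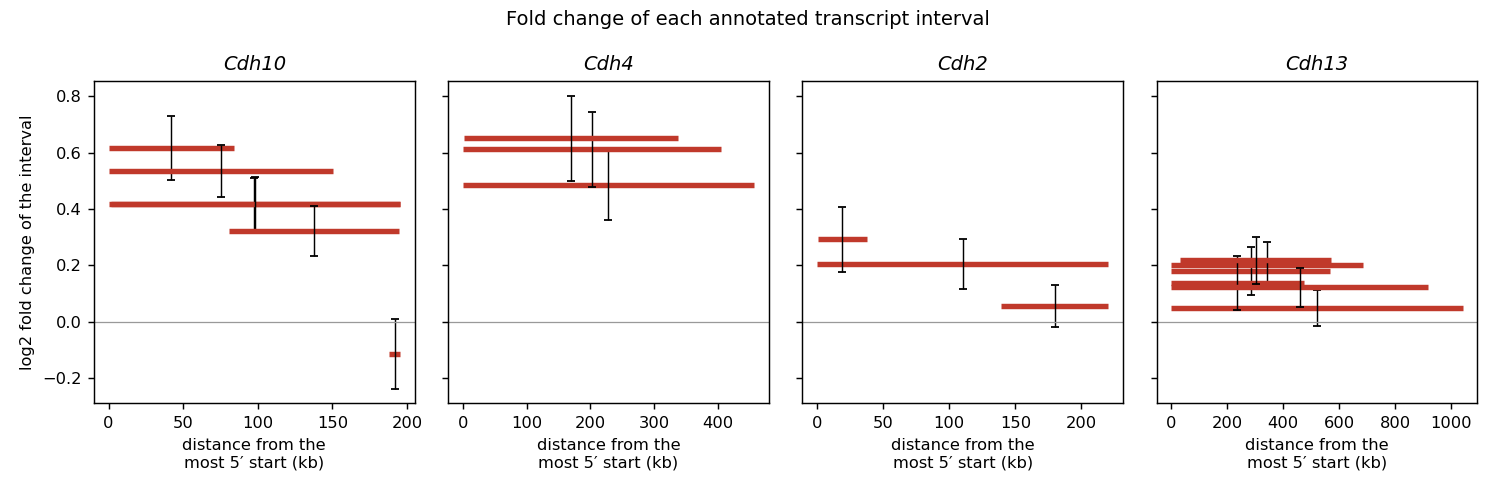
Each bar is a transcript interval of *Cdh10*, *Cdh4*, *Cdh2* or *Cdh13*, drawn from its start to its end in kb from the most 5′ start of the gene, at the height of its log2 fold change (black: standard error). In *Cdh10* the 5′ interval is at 0.62 and the last interval at -0.11, and in *Cdh2* the 5′ interval is at 0.29 and the 3′ interval at 0.06.

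By a rule also set after the counts were seen, the contrast was made in 6 members whose transcripts divide the gene into a 5′ part and a 3′ part with at least 100 reads each. In *Cdh2* the 5′ part of 139.3 kb had 2645, 3144, 3104 and 2501 normalized counts in the controls and 3892, 2908, 4142 and 3843 after knockdown. Its 3′ part of 81.0 kb had 3725, 3733, 3616 and 3529 in the controls and 4007, 3274, 3801 and 4101 after knockdown. The log2 change was 0.37 in the 5′ part and 0.05 in the 3′ part, and the ratio of the parts was higher in every knockdown library (two-sided exact permutation test, p = 0.0286, adjusted p = 0.0857 over 6 genes). In *Cdh10* the 5′ part changed by 0.63 and the 3′ part by 0.29, again with no overlap of the ratios (two-sided exact permutation test, p = 0.0286, adjusted p = 0.0857). As no exact p can be below 0.0286, 2 genes alone could not have passed an adjusted p of 0.05. *Cdh4* had 0.65 in the 5′ part and 0.34 in the 3′ part, *Cdh8* 0.35 and 0.25, *Cdh13* 0.13 and -0.0038, and *Cdh18* 0.09 and 0.14, and in these 4 genes the ratios overlapped between treatments. The change was larger in the 5′ part in 5 of 6 members, in 65.5% of 4137 genes divided by the same rule and in 73.1% of the 978 of these in the length range of the members. A ratio higher in every knockdown library was seen in 2 of 6 members, in 5.8% of the 4137 genes and in 12.4% of the 978.

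**Figure D5:**
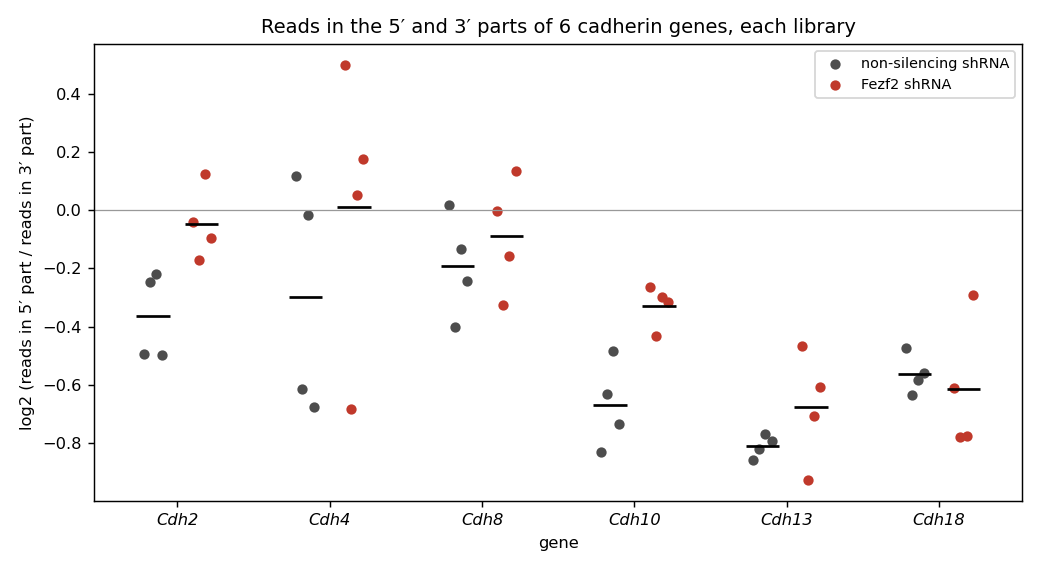
Log2 ratio of reads in the 5′ part to reads in the 3′ part of 6 cadherin genes in each library (points; lines are means), for *non-silencing shRNA* (grey) and *Fezf2 shRNA* (red). The treatments do not overlap in *Cdh2*, where the means are -0.36 and -0.05, and in *Cdh10*, where they are -0.67 and -0.33.

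The partners of cadherins were read from lists of catenins, other cadherins and nectins. Of the 9 catenins, all tested, 1 rose past the threshold and the median log2 fold change was 0.10. Of all genes tested 1.96% rose past it, and 7.45% of those in the length range of the members. *Ctnnd2*, which encodes the neuronal δ-catenin that binds the juxtamembrane region of cadherins, had 22268 ± 1349 normalized counts in controls and 29347 ± 2096 after knockdown (SD, n = 4 each; log2 fold change 0.40, edgeR adjusted p = 0.0309). *Ctnna2*, the neuronal α-catenin, had 26690.3 ± 2172 normalized counts in controls and 32798 ± 1984 after knockdown (SD, n = 4 each; log2 fold change 0.30, edgeR adjusted p = 0.0834), without overlap between treatments. These genes span 856.7 and 1097 kb, and with the length offset they had log2 fold changes of 0.07 and -0.04. The call of *Ctnnd2* was lost without control replicate 1 (edgeR adjusted p = 0.106), control replicate 4 (0.0880), knockdown replicate 1 (0.0894), knockdown replicate 3 (0.0893) or knockdown replicate 4 (0.0736), and with a filter of 1 CPM (0.0516).

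Of 14 large and atypical cadherins 11 were tested and 1 rose, with a median of 0.05. The share that rose was 1.96% of all genes tested and 7.45% of those in the length range of the members. The gene of this list that rose was *Pcdh15*, a tip-link cadherin of hair cells. *Pcdh15* had 2383 ± 353 normalized counts in controls and 3543 ± 456 after knockdown (SD, n = 4 each; log2 fold change 0.57, edgeR adjusted p = 0.0356). Its call was lost without control replicate 1 (edgeR adjusted p = 0.114), control replicate 4 (0.0923), knockdown replicate 1 (0.0812), knockdown replicate 2 (0.0558), knockdown replicate 3 (0.0998) or knockdown replicate 4 (0.0669), and with a filter of 1 CPM (0.0593) or none (0.0513), and the length offset gave a log2 fold change of 0.26. *Clstn1*, a calsyntenin, had 35400.1 ± 3867 normalized counts in controls and 34784 ± 2878 after knockdown (SD, n = 4 each; log2 fold change -0.03, edgeR adjusted p = 0.898).

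No gene of the remaining lists passed the threshold in edgeR. Among 9 other classical and type II cadherins 4 were tested, with a median log2 fold change of 0.13, none at an unadjusted p under 0.05 and none called by DESeq2 without prior, which called 7.55% of all genes tested and 23.9% of those in the length range of the members. *Cdh20* had 2316 ± 163 normalized counts in controls and 2789 ± 544 after knockdown (SD, n = 4 each; log2 fold change 0.27, edgeR adjusted p = 0.258) and *Cdh22* had 1492 ± 350.2 normalized counts in controls and 1609 ± 182 after knockdown (SD, n = 4 each; log2 fold change 0.11, edgeR adjusted p = 0.703). *Cdh5*, the cadherin of endothelium, was below the filter. Of 8 nectins and cadherin-associated proteins 6 were tested, with a median of 0.22, 3 at an unadjusted p under 0.05 (19.6% of all genes tested and 40.4% in the length range of the members) and 2 called by DESeq2. *Ptprm*, a receptor phosphatase, had 3774 ± 286 normalized counts in controls and 4704 ± 340.4 after knockdown (SD, n = 4 each; log2 fold change 0.32, edgeR adjusted p = 0.0531), and *Adam10*, a protease that cuts N-cadherin, had 2802 ± 247 normalized counts in controls and 3070.4 ± 199.98 after knockdown (SD, n = 4 each; log2 fold change 0.13, edgeR adjusted p = 0.349). Of 10 delta protocadherins 9 were tested, with a median of 0.05, 1 at an unadjusted p under 0.05 and 1 called by DESeq2. *Pcdh9* had 48481 ± 1148 normalized counts in controls and 57233 ± 6517 after knockdown (SD, n = 4 each; log2 fold change 0.24, edgeR adjusted p = 0.171) and *Pcdh10* had 8212 ± 1008 normalized counts in controls and 8422 ± 942 after knockdown (SD, n = 4 each; log2 fold change 0.04, edgeR adjusted p = 0.863).

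The tissue was checked with markers. Summed over each list, neuronal markers had 2861 to 3159 CPM in the controls and 2987 to 3223 CPM after knockdown, and markers of meningeal fibroblasts 6.08 to 21.8 CPM and 4.51 to 26.2 CPM. No marker was at 0 in all libraries. The summed levels overlapped between treatments for 10 of 11 lists, among them oligodendrocytes (1047 to 2038 CPM in controls, 788 to 1306 CPM after knockdown) and astrocytes (470.0 to 562 CPM and 417 to 522 CPM). The exception was the list of 3 mural cell markers, with 60.7 to 79.2 CPM in controls and 52.4 to 58.4 CPM after knockdown (two-sided exact permutation test, p = 0.0286, adjusted p = 0.314 over 11 lists). This is the smallest exact p possible, and a single list could not have passed the adjustment. The part of these cells in the values of the cadherin genes was not tested.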

How the data were processed

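Raw counts of 8 libraries of M1 RNA were used, 4 per treatment. Per the study's methods, adapters were trimmed with fastq-mcf and paired reads were mapped by tophat2 to mm10. BEDTools multiCov then gave the reads per Ensembl transcript, and the authors deposited these counts without normalization. Each library was treated as 1 animal. A second deposited table holds fold changes and p-values of the authors' own comparison and was not used.

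Of 94647 transcripts 91320 were found in GENCODE M21, and the remaining 3327 held 1.82% of counts. One transcript per gene, that with the lowest Ensembl number, gave 38031 genes. A gene was tested if 4 or more libraries had above 8 CPM. The test was run with edgeR 4.0.16 (TMM over the genes tested, quasi-likelihood test, no covariate) in R 4.3.3, with Benjamini-Hochberg adjustment over all genes tested. The SE of a log2 fold change is its size divided by the square root of the F statistic of that test, which gives no SE itself. Single values were compared by exact permutation over 70 splits. Alternatives included DESeq2 1.42.0 and an offset for gene length (loess, span 0.3).

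The members and lists were chosen with earlier results of these data known. An earlier fit of the same design had given another number of calls. After this was seen, library sizes were changed from all genes to the genes tested, which left the 208 genes called in the fit reported here but moved the counts of some alternatives, and 8 specifications (library sizes, TMM before or after the filter, robust or not robust dispersion) were run. They called 208 to 283 genes and 1 or 2 members. The cause of the difference was not found, and the fit with the defaults of edgeR was kept. The edgeR fit per gene, with and without the length offset, was run on simulated counts with the same dispersion for all genes. The other alternatives were not run on simulated counts. All 10 members are named. In each other list, genes past the threshold were named and, up to 2, those with the highest mean CPM.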

Additional observations from a re-analysis of the deposited data

Results flagged for a closer look

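One of the 22 sets of 4 libraries examined (10 cadherin genes and *Fezf2*, in each treatment) held a library far from the others. *Cdh2* had 6183 normalized counts in *Fezf2 shRNA* replicate 2, whereas the other 3 knockdown libraries had 7899.7 to 7944. The gap took 0.975 of the whole range, above Dixon's 95% critical value for 4 samples. Chance flags about 1 in 20 independent sets, but these sets share the same libraries. Replicate 2 was also the lowest knockdown library in *Cdh6*, *Cdh9*, *Cdh12*, *Cdh13* and *Cdh18*. In *Cdh4* and *Cdh11* it was the highest, and in *Cdh8* and *Cdh10* it was neither. The cause was not tested.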

How the results depend on the processing

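The number of members past the threshold, 1 in the fit reported, was 0 with a filter of 1 CPM or none (6 members at an unadjusted p under 0.05 with edgeR in each), 0 with the replicate block (5 members), 0 with the gene-length offset and with the gene-length offset and replicate block together (3 members in each), 3 in DESeq2 with or without prior, and 0 to 3 when a library was left out. All genes past the threshold, 208 in the fit reported, numbered 136 with library totals, 84 with a filter of 1 CPM, 103 with no filter, 752 in DESeq2 without prior, 734 with it, 90 with the replicate block, 1 with the gene-length offset, 2 with offset and block, and 0 to 368 when a library was left out (0 without control replicate 1, with 1568 genes at an unadjusted p under 0.05). Genes of the 5 other lists past the threshold, 2 in the fit reported, numbered 0 with 1 CPM (9 at an unadjusted p under 0.05), 1 with no filter, 7 in DESeq2 with or without prior, 1 with the replicate block, 0 with either offset (6 at an unadjusted p under 0.05), and 0 to 4 when a library was left out. Over all genes, 2617 had an unadjusted p under 0.05 (edgeR) with 1 CPM and 3206 with no filter. Of the 9959 genes tested it was 2077 with the replicate block, 1078 with the offset and 1265 with offset and block. Members with all knockdown libraries above all controls, 2 in the fit reported, numbered 0 with either offset and 2 to 5 when a library was left out. The 5 were seen without knockdown replicate 2. With a library left out such separation is reached more easily, and no share over all genes is given for these fits. The median log2 fold change of the members was 0.030 with the offset and 0.036 with offset and block. Intervals of members past the threshold, 8 in the fit reported, were 9 with the replicate block and 0 to 11 when a library was left out. DESeq2 called *Fezf2*, at -0.28 without prior (adjusted p = 0.0256) and -0.25 with it. With the gene-length offset *Fezf2* was at -0.18 (edgeR adjusted p = 0.459), and it had the same values with offset and block.

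*Cdh13* reversed to -0.29 with the offset and with offset and block, and *Cdh18* to -0.14 and -0.15. *Cdh9*, at -0.011, became 0.0085 with the replicate block and, with single libraries left out, lay between -0.083 (control replicate 4) and 0.14 (control replicate 2), and it was 0.0070 and 0.0081 without knockdown replicates 2 and 3. The causes were not tested. Same-numbered libraries correlated at 0.30, 0.09, -0.13 and 0.17 in their deviations from the group means. The labels do not say whether the numbers pair the samples, and 4 libraries per treatment are too few for these values to decide it. With the block the calls of *Cdh10* (log2 fold change 0.43, edgeR adjusted p = 0.0622) and *Ctnnd2* (0.40, edgeR adjusted p = 0.0676) were lost.

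Alternatives chosen after seeing the data were TMM before the filter, with 1 member and 215 genes past the threshold, and robust dispersion, with 2 members, *Cdh10* and *Cdh12*, and 277 genes. The relative test was not repeated with a library left out, since 4 against 3 libraries allow no exact p below 0.0571. With 4 libraries per treatment, 0 calls do not show that a gene was unchanged.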
